A study of Mus musculus with 13 samples.

Results

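The 41 genes described here encode the receptors, auxiliary subunits, scaffolds, kinases and adhesion molecules of the glutamatergic synapse, and their promoter H3K4me3 was read from 13 libraries of mouse hippocampus. H3K4me3 is a histone mark of active promoters, and chromatin immunoprecipitation followed by sequencing counts the DNA fragments that carry it. A list of 43 genes was matched by symbol to the deposited table, and 41 were found. Grm4 and Cacng7 were not analysed here. Where a gene had several regions, the region with the highest mean over the 13 libraries was taken, which gave 41 distinct regions of the 14006 in the table. The subsets were AMPA receptor (3 genes), NMDA receptor (6), kainate receptor (5), metabotropic receptor (5), auxiliary subunit (5), scaffold (12), kinase (2) and adhesion (3).

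All mice were C57BL/6. The knockout, labelled TC;MLML_MTR-KO and called KO here, lacks methionine synthase through Cre recombination of the floxed exons 4 and 5 of Mtr, with Cre under the Thy-1.2 promoter, and the wild type is labelled MLML-WT and called WT. SRT2104, an activator of the deacetylase SIRT1, was gavaged at 50 mg/kg in 9 administrations, 3 per week, from day 15 to day 36. The WT vehicle group had the same schedule, and 20% DMSO is listed for it and for both SRT2104 groups. The groups were KO given SRT2104 (n = 4), KO labelled as not treated (n = 2), WT given SRT2104 (n = 3) and WT given vehicle, which was DMSO-PEG (n = 4). No vehicle is named for the untreated KO libraries, so in their comparison with WT vehicle genotype, gavage and sex cannot be told apart. Sex letters in the deposited column names put 2 females and 2 males in KO SRT2104, 2 females in untreated KO, 1 female and 2 males in WT SRT2104 and 4 males in WT vehicle. The labels do not say that each library came from a separate mouse, and p-values therefore reflect only how much these libraries vary, which may be technical.

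Methionine synthase remakes methionine from homocysteine and so supplies the methyl donor used by histone methyltransferases. Fast excitatory transmission in the hippocampus runs through AMPA receptors, while NMDA receptors admit calcium and set off plasticity through the calcium/calmodulin-dependent kinase that Camk2a and Camk2b encode. Scaffolds of the Dlg, Dlgap, Shank and Homer families hold these receptors in the postsynaptic density. Grm7 and Grm8 receptors and neurexins are known mainly from the presynaptic side, so not every listed gene is postsynaptic.

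The reads behind a library's regions ranged from 3963196 in WT SRT2104 replicate 1 to 9009109 in KO SRT2104 replicate 2. A member region held between 73 and 1571 reads in 1 library. Counting error alone was 3.83% to 11.7% of the value in the library with fewest reads, largest at Cacng5. The 8 hippocampal excitatory neuron markers had WT vehicle means of 89.8 at Neurod6 to 1089 at Prox1, while the 5 microglia markers present had 20.0 to 38.7. The Mtr promoter region had 479, 463, 438 and 493 in KO SRT2104, 510.2 and 427 in untreated KO, 505, 507 and 466 in WT SRT2104 and 488, 493, 489 and 486 in WT vehicle libraries, but it lies outside the deleted exons and checks nothing about the knockout.

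Promoter sequence is shown for 6 members whose H3K4me3 values lead the comparisons below. The set of RefSeq promoters used here, on build GRCm38.p6, held starts for 29 of the 41 members, 43 starts in all. The 250 bases before the start are printed from 5′ to 3′ on the strand of the gene, and capitals mark the GC box GGGCGG, read on both strands, so that it may also appear as its reverse complement. The positions are chr7:3393792-3394041 for Cacng8, chr7:25072370-25072619 for Grik5, chr4:125490446-125490695 for Grik3, chr13:93303507-93303756 for the first Homer1 start, chr8:70282749-70282998 for Homer3 and chr15:89499358-89499607 for Shank3, on GRCm38.p6. The deposited regions are on mm9, so these windows were not placed against them.
Cacng8: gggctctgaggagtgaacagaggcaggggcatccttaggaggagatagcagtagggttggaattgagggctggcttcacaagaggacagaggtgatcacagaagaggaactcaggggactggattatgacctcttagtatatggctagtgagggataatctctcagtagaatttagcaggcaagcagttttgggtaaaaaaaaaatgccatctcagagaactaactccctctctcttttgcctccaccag
Grik5: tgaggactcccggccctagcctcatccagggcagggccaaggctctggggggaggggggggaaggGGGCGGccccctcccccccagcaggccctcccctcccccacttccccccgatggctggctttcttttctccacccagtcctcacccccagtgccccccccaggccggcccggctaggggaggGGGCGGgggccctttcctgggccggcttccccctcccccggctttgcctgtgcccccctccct
Grik3: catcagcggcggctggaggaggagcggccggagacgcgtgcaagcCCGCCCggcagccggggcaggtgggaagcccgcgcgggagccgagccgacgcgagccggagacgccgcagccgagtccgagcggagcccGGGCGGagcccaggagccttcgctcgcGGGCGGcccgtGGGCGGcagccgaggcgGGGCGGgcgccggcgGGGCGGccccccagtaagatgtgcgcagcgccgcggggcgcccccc
Homer1: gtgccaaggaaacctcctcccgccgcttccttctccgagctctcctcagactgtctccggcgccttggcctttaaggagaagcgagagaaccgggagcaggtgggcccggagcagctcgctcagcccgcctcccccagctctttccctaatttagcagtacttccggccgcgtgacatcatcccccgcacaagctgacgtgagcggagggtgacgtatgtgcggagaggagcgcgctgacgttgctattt
Homer3: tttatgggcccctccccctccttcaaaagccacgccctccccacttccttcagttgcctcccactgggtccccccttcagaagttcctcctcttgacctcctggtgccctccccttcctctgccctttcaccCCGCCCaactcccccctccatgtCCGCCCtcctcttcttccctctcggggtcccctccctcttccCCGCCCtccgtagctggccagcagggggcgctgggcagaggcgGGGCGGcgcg
Shank3: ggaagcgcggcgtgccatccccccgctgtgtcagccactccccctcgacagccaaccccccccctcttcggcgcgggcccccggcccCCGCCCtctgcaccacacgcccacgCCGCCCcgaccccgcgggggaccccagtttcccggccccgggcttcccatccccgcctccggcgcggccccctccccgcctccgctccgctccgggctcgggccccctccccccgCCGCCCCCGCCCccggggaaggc

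These windows differ widely in base composition. The Grik3 and Shank3 windows had 82.0% and 82.4% G and C, with 42 and 31 CpG and with 6 and 4 GC boxes. Those of Grik5 (75.2% G and C, 8 CpG, 2 GC boxes) and Homer3 (68.0%, 11 CpG, 4 GC boxes) lay between. Homer1 had 62.4% G and C, 21 CpG and 0 GC boxes. Cacng8, which leads the genotype comparison, had 48.0% G and C, 0 CpG and 0 GC boxes in this window. The marked Cacng8 region begins 1388 bp upstream of the mm9 window annotated for the gene. The regions of the other members printed begin inside theirs. Whether the printed Cacng8 bases lie in its marked region was not tested, so they cannot be read as the composition of that region. Over the members, 16 of 43 windows (37.2%) held a GC box, against 32.7% of 32851 windows of the same length. Of the other motifs searched on both strands, CRE (TGACGTCA) was in 0 member windows (1.55% of all), TATAAA in 4.65% (12.4% of all), CACGTG in 4.65% (6.02% of all) and GCATGCGC in 2.33% (2.26% of all). Median G and C content was 58.8% over the member windows and 52.4% over all. A match is a run of letters and not a measured binding site.

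Members lay in wide regions with moderate signal per length. Their regions had a median length of 2088 bp, against 1484 bp for all regions, and 34 of 41 (82.9%) were longer than that all-region median. Above 2199 bp, where 9.98% of all regions lay, there were 13 members (31.7%). WT vehicle signal, reads scaled by a single divisor for each library, had a median of 589.9 over members and 529.9 over all regions. Per kb of region the order was the other way round, with a median of 318 for members and 363 for all regions, and 13 of 41 members lay above the all-region value. Member regions are the highest of each gene, and the all-region figures are not chosen in that way.

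**Figure D1:**
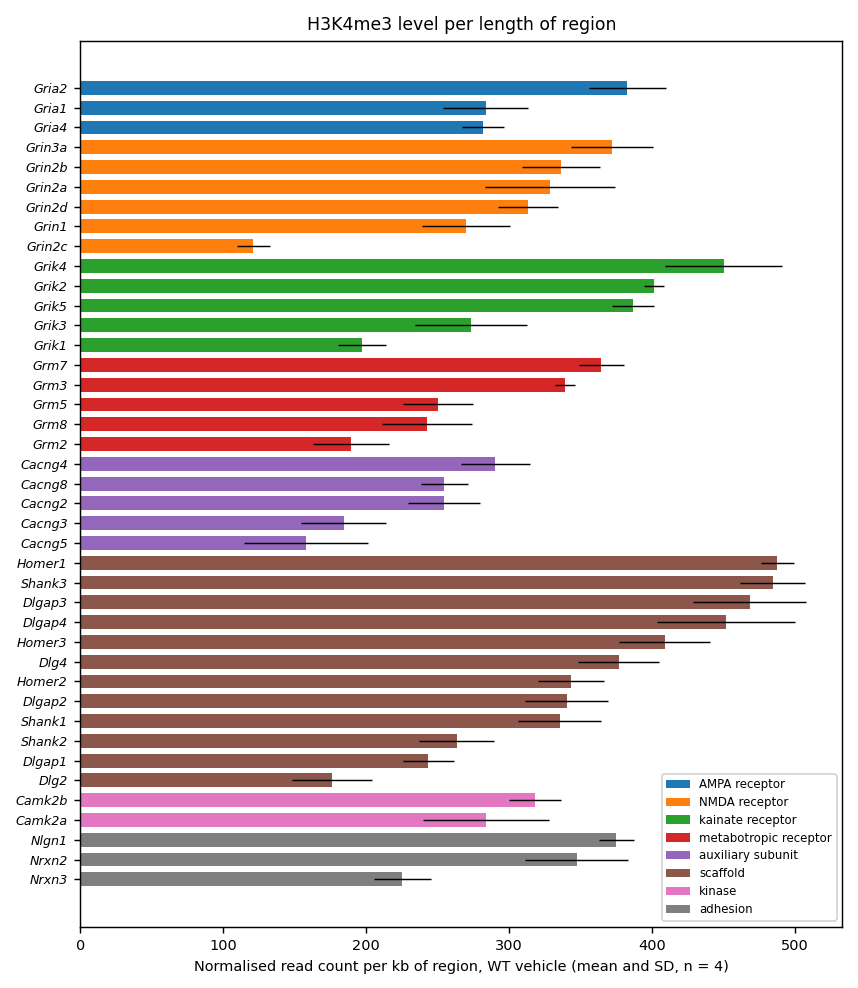
H3K4me3 normalised read count per kb of region in WT vehicle libraries, as mean and SD (n = 4), for the 41 members ordered within each subset. Scaffold genes reached the highest value (Homer1, 488 per kb) and the NMDA receptor gene Grin2c had the lowest (121 per kb).

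Among the AMPA receptor genes, which encode the pore-forming subunits of the main fast receptor, Gria2 had 383 ± 26.9 per kb in WT vehicle and Gria4 282 ± 14.7 (mean ± SD, n = 4). Gria2, whose edited subunit blocks calcium entry (chr3:80604190-80607071, mm9), had 1067, 1216, 1219 and 1086 in KO SRT2104, 1219.7 and 1178 in untreated KO, 1231, 1123 and 1204 in WT SRT2104 and 1033, 1088, 1214 and 1077 in WT vehicle libraries. Gria1 (chr11:56825292-56827536) had 692, 718, 702 and 632 in KO SRT2104, 780.4 and 743 in untreated KO, 801, 641 and 699.8 in WT SRT2104 and 541, 637, 686 and 682 in WT vehicle libraries. Both untreated KO values of Gria1 lay above all 4 WT vehicle values and above all 4 KO SRT2104 values, while WT SRT2104 spanned both. Gria4 (chr9:4794384-4796503) had 531, 627, 605 and 608 in KO SRT2104, 654 and 637 in untreated KO, 597, 573 and 574 in WT SRT2104 and 571, 614, 633 and 571 in WT vehicle libraries. Its untreated KO libraries were also above the other KO and the vehicle libraries.

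NMDA receptors need the Grin1 subunit together with a Grin2 or Grin3 subunit. Per kb, Grin3a, a glycine-binding subunit, was highest at 372 ± 28.7 in WT vehicle and Grin2c lowest at 121 ± 11.7, the lowest of all 41 members. Grin2a (chr16:9992986-9995771), which encodes a glutamate-binding subunit that increases after birth, had 1023, 1033, 1021 and 874 in KO SRT2104, 1183 and 1009.5 in untreated KO, 1050.1, 924 and 929 in WT SRT2104 and 770.5, 868, 1069.9 and 952 in WT vehicle libraries. Both untreated KO libraries were within or above the vehicle range, and KO SRT2104 replicate 4 stood below the other 3 of its group. Grin2d (chr7:53121374-53122285) had 286, 238, 286 and 312 in KO SRT2104, 279.7 and 262 in untreated KO, 235, 261 and 268 in WT SRT2104 and 309, 262, 286 and 285 in WT vehicle libraries, and all group ranges overlapped. Grin2c (chr11:115127241-115128647), best known from the cerebellum, had 162, 181, 179.6 and 188 in KO SRT2104, 182 and 198 in untreated KO, 206, 188 and 185 in WT SRT2104 and 150.1, 185, 182 and 164 in WT vehicle libraries. All 3 WT SRT2104 libraries of Grin2c were above the 4 vehicle libraries, by a margin smaller than the rounding. Grin3a (chr4:49856966-49858926) had 729, 746, 693 and 709 in KO SRT2104, 777 and 758 in untreated KO, 693, 732 and 725 in WT SRT2104 and 678, 713, 809.6 and 718 in WT vehicle libraries. Grin1 averaged 649 ± 10.6 in untreated KO and 563 ± 64.5 in WT vehicle (SD, n = 2 and 4). Grin2b had 745 and 728 in untreated KO, both above the 4 WT vehicle libraries, which averaged 656 ± 53.1.

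Kainate receptors combine the subunits of Grik1 to Grik3 with the high-affinity subunits of Grik4 and Grik5. Grik4 was highest per kb at 450.2 ± 41.1 in WT vehicle and Grik1 lowest at 197 ± 16.6. Grik5 (chr7:25855958-25858132) had 925, 886, 927 and 839 in KO SRT2104, 1019 and 941 in untreated KO, 926, 833 and 879.6 in WT SRT2104 and 804, 869, 825 and 866 in WT vehicle libraries. The untreated KO pair lay above all vehicle and all KO SRT2104 libraries of Grik5. Grik3 (chr4:125167237-125169383) had 597, 582, 633 and 561 in KO SRT2104, 563 and 624 in untreated KO, 503, 408 and 537 in WT SRT2104 and 476, 621, 674 and 573 in WT vehicle libraries. All 4 KO SRT2104 libraries of Grik3 lay above the 3 WT SRT2104 libraries, and no other member was separated that way. Grik4 (chr9:42751279-42753063) had 888, 789, 782 and 695 in KO SRT2104, 927 and 737 in untreated KO, 691, 788 and 749 in WT SRT2104 and 772, 726, 898 and 815 in WT vehicle libraries, with wide ranges in each KO group. Grik1 (chr16:88289446-88291040) had 241, 303, 323 and 323 in KO SRT2104, 300.4 and 316 in untreated KO, 267, 289 and 296 in WT SRT2104 and 311, 352, 293 and 301 in WT vehicle libraries. Grik2 stayed between 433 and 529 over the 13 libraries.

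Metabotropic glutamate receptors signal through G proteins. Grm7 had the highest level per kb, 365 ± 15.7 in WT vehicle, and Grm2 the lowest, 189 ± 26.5. Grm5 (chr7:94732631-94734045), which encodes the group I receptor anchored by Homer proteins, had 289.7, 389, 381 and 344 in KO SRT2104, 395 and 387 in untreated KO, 388, 319.5 and 365 in WT SRT2104 and 318, 366, 396 and 335 in WT vehicle libraries. Grm2 (chr9:106556171-106558900), a receptor that lowers transmitter release, had 588, 635, 668 and 434 in KO SRT2104, 508 and 574 in untreated KO, 604, 374 and 552 in WT SRT2104 and 428, 526, 509 and 604 in WT vehicle libraries. WT SRT2104 replicate 2 and KO SRT2104 replicate 4 of Grm2 were the lowest of their groups. Grm7 (chr6:110595131-110597729) had 916, 945, 980.3 and 874 in KO SRT2104, 1025 and 938 in untreated KO, 940.0, 861 and 910.3 in WT SRT2104 and 896, 936, 991 and 966 in WT vehicle libraries. Grm3 lay between 697 and 809.8, and Grm8 between 579 and 767, over the 13 libraries.

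The auxiliary genes encode transmembrane proteins that carry AMPA receptors to the synapse and shape their gating. All 5 present were below the all-region median per kb, with Cacng4 highest at 290.5 ± 23.9 in WT vehicle and Cacng5 lowest at 158 ± 43.6. Cacng8 (chr7:3391070-3393112), the auxiliary subunit most abundant in hippocampus, had 535, 633, 576 and 567 in KO SRT2104, 665 and 620.2 in untreated KO, 689, 573 and 598 in WT SRT2104 and 475, 512, 549 and 543 in WT vehicle libraries. The 2 untreated KO libraries and the 3 WT SRT2104 libraries of Cacng8 all lay above the 4 vehicle libraries, which did not exceed 549. Both separations rest on the same 4 vehicle libraries and are not independent. Cacng5 (chr11:107775771-107776673) had 121, 158, 146 and 156 in KO SRT2104, 92.6 and 125 in untreated KO, 148, 87.0 and 157 in WT SRT2104 and 115, 199, 117 and 139.9 in WT vehicle libraries. These were the lowest counts among the members, and the vehicle libraries alone spanned most of their range. Cacng4 (chr11:107654486-107656406) had 556, 511, 568 and 566 in KO SRT2104, 499 and 625 in untreated KO, 511, 516 and 529 in WT SRT2104 and 519, 611, 582 and 519.9 in WT vehicle libraries, with overlapping groups. Cacng2, the gene mutated in the stargazer mouse, averaged 549 ± 14.7 in untreated KO and 505 ± 50.0 in WT vehicle, and Cacng3 519 ± 52.9 and 471 ± 76.2 (SD, n = 2 and 4).

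The scaffold genes held the 4 highest levels per kb of all members. Homer1 had 488 ± 11.5, Shank3 485 ± 22.8, Dlgap3 468 ± 39.5 and Dlgap4 452 ± 48.4 in WT vehicle. Dlg2, a membrane-associated guanylate kinase, was the lowest scaffold gene at 176 ± 28.0. Homer1 (chr13:94073211-94076003), which links metabotropic receptors to Shank proteins, had 1393, 1238, 1282 and 1275 in KO SRT2104, 1449 and 1269 in untreated KO, 1153, 1224 and 1271 in WT SRT2104 and 1344, 1351, 1410.1 and 1343 in WT vehicle libraries. All 3 WT SRT2104 libraries of Homer1 lay below the vehicle libraries, and so did those of Shank3 (chr15:89328854-89331123), which had 1153, 967, 1049.5 and 1118 in KO SRT2104, 1216 and 1075 in untreated KO, 933, 1024 and 1035 in WT SRT2104 and 1076, 1041, 1158 and 1124 in WT vehicle libraries. Homer3 (chr8:72806432-72807874) had 681, 641, 611 and 566 in KO SRT2104, 615 and 487 in untreated KO, 556, 546 and 614 in WT SRT2104 and 647, 541, 567 and 603 in WT vehicle libraries, with the lowest value in untreated KO replicate 2.

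Shank2 (chr7:151469848-151472756) had 802, 933, 865 and 755 in KO SRT2104, 918 and 945 in untreated KO, 969, 770.2 and 786 in WT SRT2104 and 705, 713, 872 and 773 in WT vehicle libraries. Both untreated KO values were above the vehicle range. Dlgap1 (chr17:70871095-70873330), which joins Dlg to Shank proteins, had 555, 608, 629.9 and 544 in KO SRT2104, 624 and 620.2 in untreated KO, 696, 563 and 626 in WT SRT2104 and 488, 559.9, 582 and 548 in WT vehicle libraries, and again the untreated KO pair lay above the vehicle libraries. Dlgap2 (chr8:14095521-14097635) had 781, 798, 747 and 691 in KO SRT2104, 816 and 742 in untreated KO, 709, 628 and 717 in WT SRT2104 and 672, 666, 794 and 746 in WT vehicle libraries. Dlg2 (chr7:98238806-98240883) had 375, 436, 389 and 388 in KO SRT2104, 409 and 472 in untreated KO, 466, 392 and 399 in WT SRT2104 and 297, 377, 437 and 354 in WT vehicle libraries. Its lowest value was vehicle replicate 1. Dlg4, which encodes the most abundant guanylate kinase of the postsynaptic density, averaged 650.1 ± 60.01 in untreated KO and 571 ± 43.3 in WT vehicle, Shank1 644 ± 24.7 and 579 ± 50.1, and Homer2 551 ± 5.53 and 547 ± 37.0 (SD, n = 2 and 4). Dlgap3 and Dlgap4 averaged 894 ± 27.8 and 1175 ± 74.3 in untreated KO, against 837 ± 70.6 and 1095 ± 117 in WT vehicle. The Dlgap4 region also carries the gene name Gm14169.

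Of the kinase genes, Camk2b was higher per kb (318 ± 18.2) than Camk2a (284 ± 44.1) in WT vehicle. Camk2a had 457, 517, 446 and 402 in KO SRT2104, 485 and 572 in untreated KO, 509, 435 and 423 in WT SRT2104 and 353, 405, 511 and 418 in WT vehicle libraries. Vehicle replicate 3 of Camk2a was above untreated KO replicate 1, so the groups overlapped. Camk2b had 1026, 963, 944 and 897 in KO SRT2104, 1029.8 and 920.0 in untreated KO, 969, 863 and 910.3 in WT SRT2104 and 842, 905, 969 and 914 in WT vehicle libraries. Of the adhesion genes, Nlgn1, a postsynaptic partner of neurexins, was highest per kb (375 ± 12.02) and Nrxn3 lowest (225 ± 20.0). Nlgn1 (chr3:26050732-26052927) had 811, 849, 805 and 833 in KO SRT2104, 899 and 804 in untreated KO, 849.8, 839 and 879 in WT SRT2104 and 804, 862, 813 and 814 in WT vehicle libraries. Nrxn2 (chr19:6418282-6420374) had 689.6, 690.5, 726 and 708 in KO SRT2104, 879 and 823 in untreated KO, 664, 755 and 721 in WT SRT2104 and 664, 707, 837 and 700.2 in WT vehicle libraries. The untreated KO pair of Nrxn2 stood above all KO SRT2104 libraries, but vehicle replicate 3 exceeded untreated KO replicate 2. Nrxn3 (chr12:91050137-91051580) had 357, 357, 331 and 315 in KO SRT2104, 313 and 336 in untreated KO, 305, 361 and 313 in WT SRT2104 and 295, 312, 363 and 329.9 in WT vehicle libraries.

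**Figure D2:**
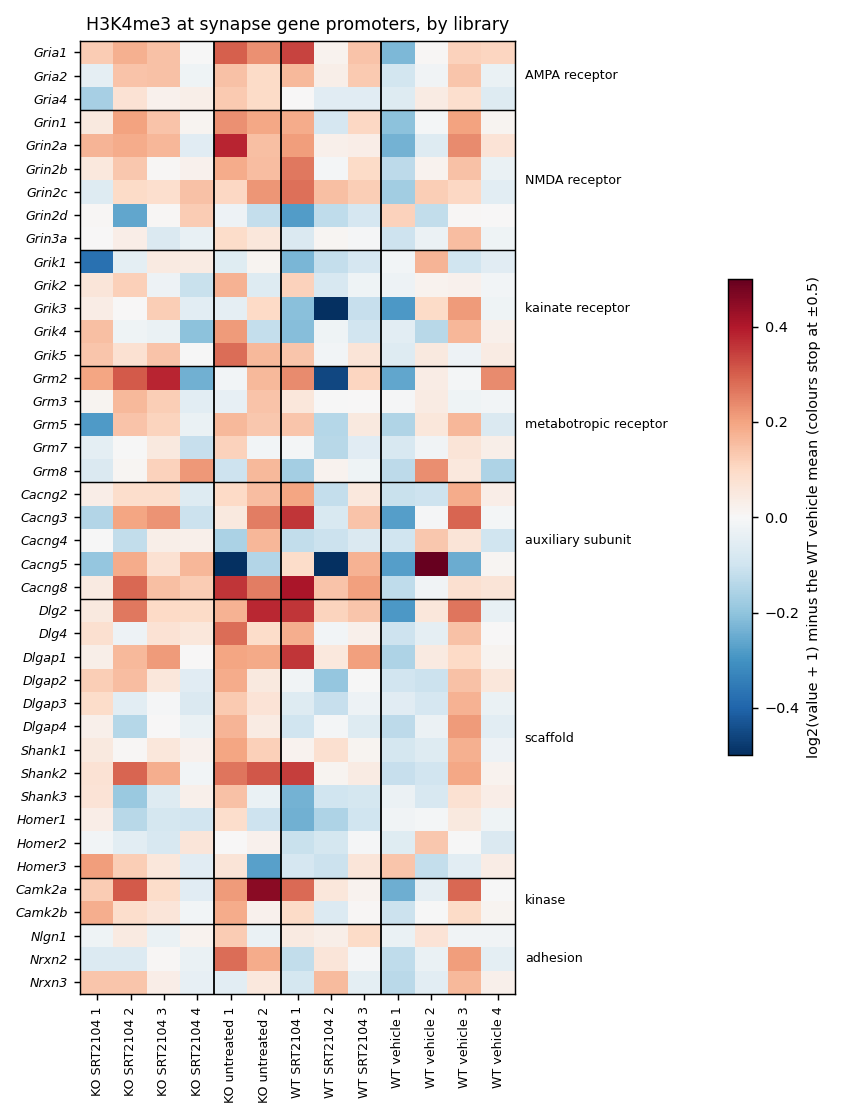
Log2(value + 1) of each member in each library minus the mean of the 4 WT vehicle libraries, with members in rows by subset and libraries in columns by group. The 2 untreated KO columns are mostly above 0, and WT vehicle replicates 1 and 3 lie on opposite sides of 0 for most members.

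In untreated KO against WT vehicle, the genotype comparison without SRT2104, 36 of 41 members had a log2 difference above 0, with a median of 0.11. Across all 14006 regions 65.4% were above 0, with a median of 0.031. No member passed limma's moderated test at a Benjamini-Hochberg adjusted p under 0.05, where 0.00714% of all regions did. At an unadjusted p under 0.05 there were 13 members, all higher in untreated KO, against 9.14% of all regions. Of those regions 868 were higher and 412 lower. The same count of 0 calls came from edgeR's quasi-likelihood test and from DESeq2 on the recovered reads, with 6 and 7 members, and 1357 and 1119 of all 14006 regions, at an unadjusted p under 0.05.

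The differences were small. Cacng8 had the smallest p, at a log2 difference of 0.31 (SE 0.077, adjusted p = 0.198), which is 1.24-fold, with both KO libraries above all 4 vehicle libraries. Grik5 followed at 0.22 (SE 0.063, adjusted p = 0.299) and Nrxn2 at 0.23 (SE 0.073, adjusted p = 0.319). Gria1 had 0.26 (SE 0.091, adjusted p = 0.389), Shank2 0.29 (SE 0.10, adjusted p = 0.403) and Camk2a 0.33 (SE 0.13, adjusted p = 0.46). Grin2a had 0.27 (SE 0.11, adjusted p = 0.482) and Grm5 0.15 (SE 0.11, adjusted p = 0.734), the largest difference in each of their subsets. On the other side of 0 were Cacng5 at -0.36 (SE 0.25, adjusted p = 0.714), Homer3 at -0.10 (SE 0.091, adjusted p = 0.789), Grin2d at -0.073 (SE 0.10, adjusted p = 0.871), Grik1 at -0.024 and Homer1 at -0.0059. In the authors' deposited table, the knockout against wild type column gave Cacng8 a log2 fold of 0.31 and an adjusted p of 0.146, the smallest among the members.

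By subset, all 3 AMPA receptor genes were above 0 (median 0.12), as were 5 of 6 NMDA receptor genes (0.17), 4 of 5 kainate receptor genes (0.046) and 5 of 5 metabotropic receptor genes (0.051). The auxiliary genes had 4 of 5 above 0 (median 0.13), the scaffold genes 10 of 12 (0.11), the kinase genes 2 of 2 (0.22) and the adhesion genes 3 of 3 (0.046). The kainate median was 0.18 without untreated KO replicate 2, and the auxiliary median 0.0029 with sex as a covariate. Differences between subsets were not tested. The 13 members at an unadjusted p under 0.05 comprised 1 AMPA, 3 NMDA, 1 kainate, 0 metabotropic, 1 auxiliary, 5 scaffold, 1 kinase and 1 adhesion gene. Untreated KO libraries lay wholly above the vehicle libraries for 7 members (Gria1, Gria4, Grin2b, Grik5, Cacng8, Dlgap1 and Shank2), or 17.1%, where 8.95% of all regions did. They lay wholly below for 0 members, where 4.29% of all regions did. Under TMM scaling 6 members lay wholly above, where 7.84% of all regions did, and under cyclic loess 8, where 9.09% did. Gria4 and Grin2b were in neither of those sets, and Nrxn2 was in both. Under cyclic loess Homer1 alone among the members lay wholly below, where 8.77% of all regions did.

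These counts moved with the scaling and with single libraries. Under TMM and under cyclic loess scaling 31 of 41 members were above 0, with medians of 0.074 and 0.058, where all regions had medians of -0.0011 and -0.00024. With sex as a covariate, estimated from the SRT2104 groups, 32 were above 0 with a median of 0.079. Of the members 2 then had an unadjusted p under 0.05, where 831 of all 14006 regions did. Without WT vehicle replicate 1, 30 were above 0 with a median of 0.068 and 5 were unadjusted, beside 853 of all regions. Without untreated KO replicate 1 and without replicate 2, 32 were above 0 in each. Unadjusted were 6 and 8 members, beside 1101 and 2134 of all regions. Without WT vehicle replicate 3, 20 were unadjusted and 8 members passed, all higher in untreated KO: Grin1, Grin2a, Cacng8, Dlg2, Shank1, Shank2, Camk2a and Nrxn2. In that fit 564 of all 14006 regions passed and 2289 were unadjusted. With only the 2 groups compared in the fit, Cacng8 alone among the members passed (adjusted p = 0.0338), and 47 regions did.

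**Figure D3:**
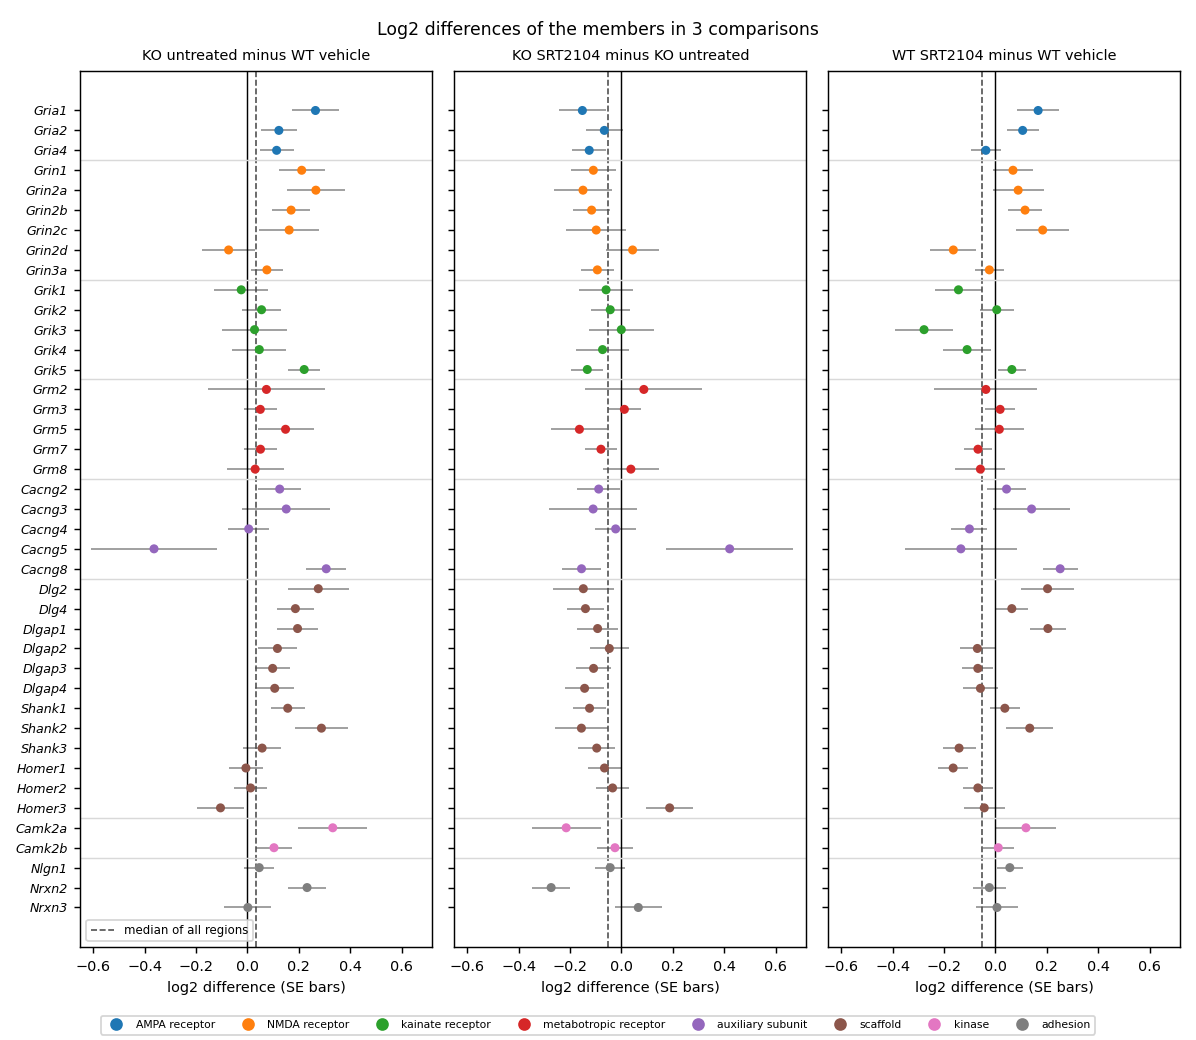
Log2 difference of each member with its SE in 3 comparisons, with members in rows coloured by subset and the dashed line at the median of all regions. In untreated KO minus WT vehicle most points lie right of 0 (36 of 41), in KO SRT2104 minus untreated KO most lie left (34 of 41), and the 2 comparisons share the untreated KO libraries.

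KO SRT2104 was set against untreated KO, so this comparison and the one before share the untreated KO libraries. The compound, the gavage and its vehicle cannot be told apart here, and 2 of the 4 KO SRT2104 libraries are male while both untreated KO libraries are female. In KO SRT2104, 34 of 41 members had a log2 difference below 0 relative to untreated KO, with a median of -0.093, where 10001 of all 14006 regions were below 0, with a median of -0.053. Under TMM scaling, in which that all-region median was -0.003, 27 members were below 0 with a median of -0.043. No member passed, nor did any region (0%), and 2 members, Nrxn2 and Grik5, had an unadjusted p under 0.05, where 12.5% of all regions did. For members edgeR and DESeq2 also gave 0 calls, each with 2 at an unadjusted p under 0.05, and over all regions they gave 0 and 29 calls, with 1526 and 1252 regions unadjusted. The unadjusted count of members was 6 without untreated KO replicate 2 and 7 without WT vehicle replicate 3. It was 1 to 4 without each of the other libraries. Over all regions it was 3156 and 2048 in the fits named, and 1101 to 1917 in the others.

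Nrxn2 had a log2 difference of -0.27 (SE 0.073, adjusted p = 0.192) in KO SRT2104 against untreated KO, Grik5 -0.13 (SE 0.063, adjusted p = 0.392) and Cacng8 -0.16 (SE 0.077, adjusted p = 0.412). Nrxn2 passed with only those 2 groups in the fit (adjusted p = 0.0109), where 363 of all 14006 regions passed, and when WT vehicle replicate 3 was left out of the shared estimate of spread (adjusted p = 0.0203), where 205 did. Above 0 were Homer3 at 0.19 (SE 0.091, adjusted p = 0.405), Cacng5 at 0.42 (SE 0.25, adjusted p = 0.48) and Nrxn3 at 0.066 (SE 0.091, adjusted p = 0.735). The KO SRT2104 libraries lay wholly below the untreated KO pair for 10 members, where 15.5% of all regions did, and wholly above for 0, where 6.19% did. The 10, or 24.4% of members, were Gria1, Gria4, Grin2b, Grin3a, Grik5, Cacng2, Dlg4, Dlgap4, Shank1 and Nrxn2. Under TMM scaling 5 remained (Grik5, Dlg4, Dlgap4, Shank1 and Nrxn2), or 12.2%, against 8.75% of all regions. Under cyclic loess 5 also lay wholly below (Grin2c, Dlg4, Dlgap4, Shank1 and Nrxn2), or 12.2%, close to the 10.6% of all regions. Cacng5 alone then lay wholly above, where 10.7% of all regions did. Medians were below 0 in the AMPA (-0.13), NMDA (-0.10), kainate (-0.06), auxiliary (-0.088), scaffold (-0.10), kinase (-0.12) and adhesion (-0.044) subsets, but the adhesion median lay above 0 under TMM and cyclic loess scaling, and the kainate median above 0 by edgeR and DESeq2. The metabotropic median was 0.012.

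In the wild type, SRT2104 against vehicle divided the members. The vehicle libraries are the same as in untreated KO against WT vehicle, so the 2 comparisons are not independent. Differences were above 0 for 22 and below 0 for 19, with a median of 0.0062, where the all-region median was -0.052. No member passed limma's test, where 0.00714% of all regions did, and 5 had an unadjusted p under 0.05, where 13.4% of all regions did. Those 5 were 2 higher and 3 lower, beside 275 regions higher and 1601 lower. edgeR and DESeq2 gave 0 members, with 8 and 9 at an unadjusted p under 0.05, as were 1002 and 763 of all 14006 regions. Without WT SRT2104 replicate 1 there was 1 such member by limma, with a member median of -0.0018. Without WT vehicle replicate 3 there were 9. Over all regions those fits had 499 and 1687 unadjusted. Above 0 were Cacng8 at 0.25 (SE 0.068, adjusted p = 0.332), Dlgap1 at 0.20 (SE 0.071, adjusted p = 0.332) and Gria1 at 0.17 (SE 0.081, adjusted p = 0.376). Below 0 were Homer1 at -0.16 (SE 0.058, adjusted p = 0.332), Grik3 at -0.28 (SE 0.11, adjusted p = 0.348) and Shank3 at -0.14 (SE 0.064, adjusted p = 0.356). With TMM scaling 27 of 41 were above 0 and with cyclic loess 31, so the balance of directions moves with the scaling.

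WT SRT2104 libraries lay wholly above the vehicle libraries for 2 members, Grin2c and Cacng8, where 1.75% of all regions did. They lay wholly below for 2, Homer1 and Shank3, where 12.7% of all regions did. AMPA (0.11) and NMDA (0.079) receptor genes had medians above 0, while kainate (-0.11), metabotropic (-0.037) and scaffold (-0.051) genes had medians below 0, of which the metabotropic and scaffold medians lay above 0 under TMM and cyclic loess scaling. Homer1 and Shank3 had the highest levels per kb among the members. Under TMM scaling too, both lay wholly below the vehicle libraries in WT SRT2104, where 4.83% of all regions did. Under cyclic loess Homer1 alone among the members did, where 3.90% of all regions did. WT SRT2104 replicate 1 was the shallowest library and the only female one in this comparison, so its depth and sex cannot be told apart. It was the highest of its group in 22 of 41 members, where it was the highest in 23.3% of all regions.

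Between the genotypes given SRT2104, KO against WT, 25 of 41 members were above 0 with a median of 0.025, beside an all-region median of 0.034. TMM and cyclic loess scaling turned the member median to -0.0096 and -0.025. No member passed (0.00714% of all regions did), and 2, Grik3 and Dlgap2, had an unadjusted p under 0.05, where 6.2% of all regions did; edgeR and DESeq2 gave 0 members, with 0 and 1 unadjusted beside 536 and 373 of all regions. The member median was 0.055 without WT SRT2104 replicate 1, 0.0044 without WT SRT2104 replicate 2 and 0.0063 without KO SRT2104 replicate 2. Grik3 had a log2 difference of 0.30 (SE 0.11, adjusted p = 0.78), Dlgap2 0.14 (SE 0.068, adjusted p = 0.78) and Shank3 0.10 (SE 0.064, adjusted p = 0.785). Below 0 were Cacng8 at -0.10 (SE 0.068, adjusted p = 0.794), Dlgap1 at -0.10 (SE 0.071, adjusted p = 0.794) and Grin2c at -0.12 (SE 0.10, adjusted p = 0.8292). KO SRT2104 libraries lay wholly above WT SRT2104 for Grik3 alone, where 5.09% of all regions did, and wholly below for 0 members, where 1.71% did.

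KO SRT2104 was also set against WT vehicle, a pair that differs in genotype, compound and sex. The KO SRT2104 libraries include females, and the WT vehicle libraries are all male. Here 27 of 41 members were above 0, with a median of 0.047 beside -0.017 for all regions. No member passed (0.00714% of all regions did), and only Cacng8 had an unadjusted p under 0.05, where 2.16% of all regions did. edgeR and DESeq2 gave 0 members, each with 2 unadjusted beside 475 and 285 of all regions. By limma 6 members were unadjusted without WT vehicle replicate 3, with a member median of 0.085. Without WT vehicle replicate 1 there were 0, with a member median of 0.0061. Over all regions those fits had 451 and 259 unadjusted. With sex as a covariate 0 members were unadjusted, beside 121 of all regions, and the member median was 0.023. Cacng8 had 0.15 (SE 0.063, adjusted p = 0.9996), Grik5 0.088 (SE 0.051, adjusted p = 0.9996) and Dlgap1 0.10 (SE 0.066, adjusted p = 0.9996), while Homer1 had -0.072 (SE 0.054, adjusted p = 0.9996), Grik1 -0.084 (SE 0.085, adjusted p = 0.9996) and Nrxn2 -0.041 (SE 0.06, adjusted p = 0.9996). No member was wholly above the vehicle libraries, where 0.436% of all regions were, and none wholly below, where 2.32% were.

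The interaction was tested as the KO SRT2104 minus untreated KO difference, less the WT SRT2104 minus WT vehicle difference. As no vehicle is named for the untreated KO libraries, gavage and vehicle enter the KO difference and cannot be told apart from the compound. No member passed, nor did any region (0%). An unadjusted p under 0.05 was found for 8 members, all below 0, and for 7.88% of all regions. Of those regions 537 were above 0 and 566 below. edgeR and DESeq2 gave 0 members, with 7 and 8 unadjusted beside 1170 and 986 of all regions. By limma the unadjusted count was 2 with sex as a covariate and 3 without WT SRT2104 replicate 1. It was 5 without WT vehicle replicate 1 and 14 without WT vehicle replicate 3. Over all regions those fits had 752, 842, 844 and 1784 unadjusted. Members had a median interaction of -0.085, beside 0.0071 for all regions, and 14 of 41 were above 0. Under TMM and cyclic loess scaling the count above 0 was again 14 in each. Cacng8 had -0.41 (SE 0.10, adjusted p = 0.28), Dlgap1 -0.30 (SE 0.11, adjusted p = 0.504), Nrxn2 -0.25 (SE 0.098, adjusted p = 0.544) and Gria1 -0.32 (SE 0.12, adjusted p = 0.552). Above 0 the largest was 0.56 at Cacng5, whose counts were the lowest among the members. For Cacng8 the 2 parts were -0.16 in KO and 0.25 in WT. Without WT vehicle replicate 3, 2 members passed, Cacng8 and Nrxn2, both with an interaction below 0, along with 272 of all regions.

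**Figure D4:**
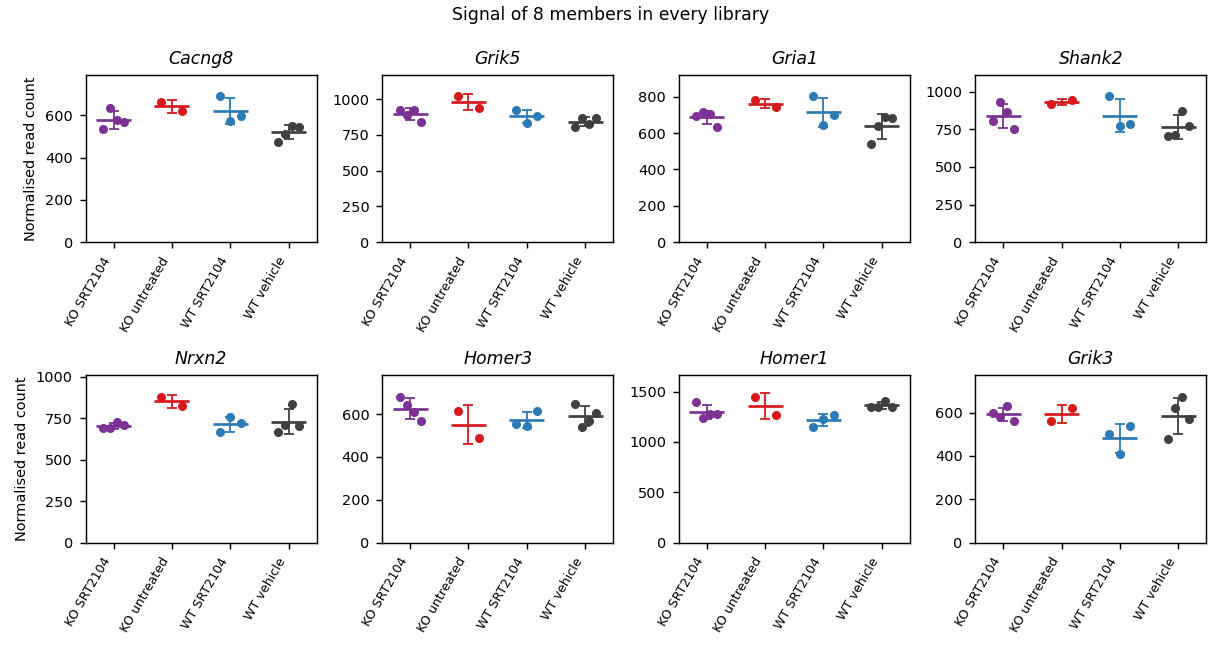
Normalised read count of 8 members in every library, as points, with the mean and SD of each group (n = 4 KO SRT2104, 2 untreated KO, 3 WT SRT2104, 4 WT vehicle). In Cacng8, Grik5, Gria1 and Shank2 both untreated KO points lie above all WT vehicle points, and in Homer1 the 3 WT SRT2104 points lie below them.

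Members varied between libraries of a group. Relative to the WT vehicle mean, the member median was 0.038, 0.089, 0.06 and -0.014 in the KO SRT2104 libraries, 0.15 and 0.10 in untreated KO, 0.055, -0.023 and 0.012 in WT SRT2104 and -0.11, -0.01, 0.11 and -0.011 in WT vehicle (log2, replicates in order). Vehicle replicate 3 lay above untreated KO replicate 2 and below untreated KO replicate 1. Vehicle replicate 1 was the lowest of its 4 in 29 of 41 members, against 26.3% of all regions, and replicate 3 the highest in 29 of 41, against 48.1% of all regions. In KO SRT2104, replicate 4 was the lowest in 19 of 41 members, against 18.7% of all regions.

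Marker genes of cell types were read in the same libraries. The 8 neuron markers had medians of -0.0054, 0.067, 0.057 and 0.012 in KO SRT2104, 0.17 and 0.10 in untreated KO, 0.094, -0.05 and 0.029 in WT SRT2104 and -0.16, -0.02, 0.19 and -0.062 in WT vehicle libraries, and their summed signal was 5898 to 6085 in untreated KO and 4828 to 6279 in WT vehicle. All 8 were above 0 in untreated KO minus WT vehicle, and 1 had an unadjusted p under 0.05. Of the 8 hippocampal excitatory neuron markers 5 were above 0, with a median of 0.045 and a range of -0.28 to 0.68. Of the 8 oligodendrocyte markers present 7 were below 0, with medians of 0.10 and -0.46 in untreated KO and 0.21, 0.033, -0.41 and 0.085 in WT vehicle, and summed signal of 2148 to 2817 in untreated KO and 2239.5 to 2877 in WT vehicle. Of the 9 astrocyte markers all were above 0, 6 at an unadjusted p under 0.05, with summed signal of 3419 to 3454 in untreated KO and 2968 to 3219 in WT vehicle. The 4 choroid plexus and ependyma markers were all below 0, with summed signal of 759 to 888 in untreated KO and 835 to 1191 in WT vehicle. Of 6 GABAergic neuron markers 5 were below 0, and of 8 endothelium and pericyte markers 6 were above 0. In KO SRT2104 minus untreated KO, 7 of 8 neuron, 4 of 8 hippocampal excitatory neuron and 9 of 9 astrocyte markers were below 0, and 6 of 8 oligodendrocyte and 4 of 4 choroid plexus and ependyma markers were above 0. The lowest value of any of these markers in a library was 8.05. In bulk chromatin a smaller share of a cell type and less mark per cell cannot be told apart, and the part of cell composition in the members' values was not tested.

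**Figure D5:**
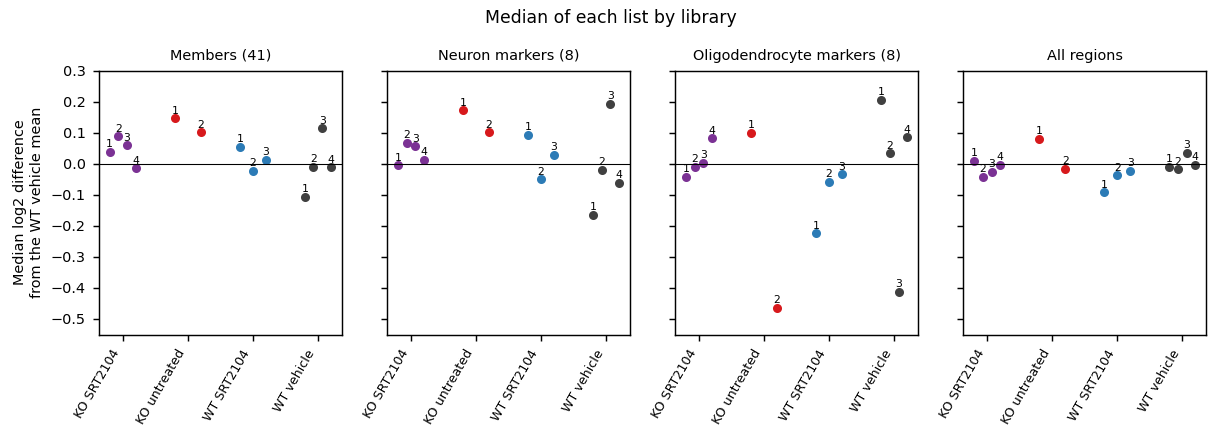
Median log2 difference from the WT vehicle mean in each library for the 41 members, 8 neuron markers, 8 oligodendrocyte markers and all regions, with the replicate number above each point. In the WT vehicle group, replicate 3 is the highest for members and neuron markers and the lowest for oligodendrocyte markers, and replicate 1 is the reverse.

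Other excitatory synapse genes, 69 of a further list of 72, gave the pathway around the members. In untreated KO against WT vehicle 60 of 69 were above 0 with a median of 0.066, and none passed limma's test. At an unadjusted p under 0.05 there were 11 higher and 1 lower. Over all 14006 regions 1280 had such a p, 868 higher and 412 lower. In that comparison Grm6 lay below 0 at -0.34 (SE 0.15, adjusted p = 0.473) and Tiam1, a Rac activator, at -0.16 (SE 0.091, adjusted p = 0.621).

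Against untreated KO, KO SRT2104 had 16 of these 69 genes above 0, with a median of -0.056, and none passed, with 3 higher and 10 lower unadjusted, where 588 of all 14006 regions were higher and 1167 lower. Grid1, which encodes a delta glutamate receptor, averaged 1024 ± 18.3 in KO SRT2104 and 1231 ± 47.2 in untreated KO (SD, n = 4 and 2), a difference of -0.27 (SE 0.068, adjusted p = 0.183). Higher in KO SRT2104 were Tiam1, at 0.31 (SE 0.091, adjusted p = 0.239), and Grm6, at 0.48 (SE 0.15, adjusted p = 0.242).

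Of the members, 6 had further regions, at which the untreated KO mean was above the WT vehicle mean in each. The second Shank2 region (chr7:151360983-151362360) averaged 286 ± 3.98 in untreated KO and 226 ± 36.0 in WT vehicle (SD, n = 2 and 4), a log2 difference of 0.35 (adjusted p = 0.349). Nrxn3, whose main region had a log2 difference of 0.0017, had 90.6 ± 19.9 in untreated KO and 65.2 ± 14.9 in WT vehicle at its second region (log2 difference 0.48, adjusted p = 0.547). The other two Nlgn1 regions had log2 differences of 0.17 and 0.18, against 0.046 at the first. The second regions of Dlg2, Dlgap1 and Dlgap4 had 0.38, 0.59 and 0.074. That of Dlgap1 had low values with a wide spread, 45.4 ± 30.8 in untreated KO and 28.8 ± 15.1 in WT vehicle. None of these further regions passed.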

How the data were processed

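H3K4me3 chromatin immunoprecipitation libraries from mouse hippocampus were analysed from 1 deposited table. Chromatin was fixed with paraformaldehyde and sonicated, and libraries were made with the KAPA HyperPrep kit, per the labels' protocols. Per the submitters' processing notes the build was mm9 and the tools were MACS2, Bowtie2, DESeq2, SAMtools and bedtools, with no version or role stated. The deposited signal is a read count divided by the authors' 1 factor per library: all values (100%) in the 13 libraries were whole multiples of 1 step, within a tolerance of 0.001 reads, so whole reads were recovered. The authors' log2 fold change, p-value and adjusted p-value for knockout against wild type are deposited beside it. How regions were called, and whether an input was used, is not given in the sources used here.

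The 17212 lines were reduced to 14006 regions. limma's moderated test (mean trend, robust) was run on log2(value + 1) over all regions and all 13 libraries, 1 coefficient per group, two-sided, with Benjamini-Hochberg adjustment over all regions and a threshold of 0.05. A log2 difference on this scale understates the change of low regions. A value of 10 in at least 2 libraries was required, which removed 0 regions. Alternatives used other pseudocounts, filters and scalings, edgeR and DESeq2 on the recovered reads, a sex covariate, a replicate block, only the groups compared, all regions of a gene summed, and each library left out. Versions were DESeq2 1.42.0, edgeR 4.0.16 and limma 3.58.1 in R 4.3.3. Of the fits, only limma's was run on simulated counts, read for untreated KO minus WT vehicle alone, with the outcome not reported here. Counting errors cover counting only, as PCR duplicates may be among the reads. Members and lists were chosen with earlier results of these data known. Members given per library were the 3 with the smallest p in each direction of each pairwise comparison, those with the largest genotype difference and the highest and lowest level per kb in each subset, and those called in more than 1 alternative; of other synapse genes, the 2 with the smallest p in each direction, of which some are not reported here. Promoter sequences came from RefSeq.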

Additional observations from a re-analysis of the deposited data

Results flagged for a closer look

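In groups of 4 libraries, 3 members had 1 library far from the other 3 by Dixon's test (gap over range past the 95% critical value), of 84 groups examined (both groups of 4 for each member and for the median of all members), where chance flags about 1 in 20 groups. Grin2a had 874 in KO SRT2104 replicate 4, against 1021 to 1033 in the other 3 (gap over range 0.923). Homer1 had 1410.1 in WT vehicle replicate 3, against 1343 to 1351 (0.883). Nlgn1 had 862 in WT vehicle replicate 2, against 804 to 814 (0.840).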

How the results depend on the processing

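The medians of the 41 members stayed within the spread between replicates under all alternatives run, while 5 subset medians, 4 of them kainate, moved by more in at least 1 alternative. No alternative changed a count of calls other than as follows. With only the groups compared in the fit, 1 member passed in untreated KO minus WT vehicle and 1 in KO SRT2104 minus untreated KO. Leaving out 1 library at a time, member calls ranged from 0 to 8 in untreated KO minus WT vehicle, 0 to 1 in KO SRT2104 minus untreated KO and 0 to 2 in the interaction, the highest in each without WT vehicle replicate 3, and medians ranged from 0.068 to 0.16, from -0.12 to -0.062 and from -0.13 to -0.042. In WT SRT2104 minus WT vehicle they ranged from -0.024 to 0.047, in KO SRT2104 minus WT SRT2104 from 0.0044 to 0.055 and in KO SRT2104 minus WT vehicle from 0.0061 to 0.085, each moving by over 1.5 times. The WT SRT2104 minus WT vehicle median (0.0062) was below 0 without WT SRT2104 replicate 1 (-0.0018), without WT vehicle replicate 1 (-0.024), with sex as a covariate (-0.0068) and with the replicate block (-0.0073). The sign turned for Homer3 in untreated KO minus WT vehicle without untreated KO replicate 2 (0.064; range -0.27 to 0.064), and in KO SRT2104 minus WT vehicle for Grik1 without KO SRT2104 replicate 1 (0.013; range -0.13 to 0.013) and for Nrxn2 without WT vehicle replicate 3 (0.028; range -0.083 to 0.028); the cause was not tested. Same-numbered libraries did not deviate together (16 pairs, r from -0.29 to 0.19, 3 over 0.1). With the replicate block, the member median was 0.125 in untreated KO minus WT vehicle and -0.108 in KO SRT2104 minus untreated KO, with 0 members called in any comparison. Over all regions, DESeq2 called 25 regions in untreated KO minus WT vehicle, 29 in KO SRT2104 minus untreated KO and 13 in the interaction, against 1, 0 and 0 by limma, and only the groups compared gave 47 and 363 in the first 2. Depth limits Cacng5 most, with as few as 73 reads in a library.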
